A study of Homo sapiens with 2 samples.

Results

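The chloride channel genes are 36 of the 20037 protein-coding genes annotated on chromosomes 1 to 22, X and Y, and they were chosen by name from the CLCN, CLIC, ANO, LRRC8, BEST and TTYH families, with CFTR added. Each gene was given a window that held its RefSeq span and 5 kb at each end, and the listed HNRNPK peaks overlapping that window by at least 1 bp were counted as its peaks. The windows held 45 of the 22351 listed peaks. Among the 36 genes, CLCN3 was set against its 35 relatives.

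The peaks came from chromatin immunoprecipitation followed by sequencing (ChIP-seq) of untreated H1299 cells, an established human lung adenocarcinoma line, with 1 library pulled down with an HNRNPK antibody (IP) and 1 input library prepared with no antibody. HNRNPK is a nuclear protein that binds C-rich single-stranded DNA and RNA. There was no replicate of either library, so no value below carries a replicate error and no test between conditions exists. In the names of the listed peaks the line is spelled with a different first letter from H1299. Cell identity was not checked against markers because a peak list gives no RNA levels. The fold enrichment (IP coverage over a local background), the pileup (IP coverage in the peak) and the false discovery rate (FDR) of each peak are the authors' values. Total reads of the libraries were not analysed here. Depth was therefore read from the pileups, which are whole multiples of a step of 0.9735. That multiple is called fragments below. It is a height of coverage and not a count of all fragments along a peak. The chloride channel peaks had 5 to 16 fragments, with a median of 8.

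Chloride channels and exchangers carry anions across the plasma membrane and the membranes of endosomes and lysosomes. They set cell volume, membrane voltage, luminal acidity and the salt and water secreted by epithelia, and in the airway CFTR and the calcium-activated channel ANO1 carry chloride into the surface liquid. The families are unrelated in structure: CLC proteins are dimers with a pore or an exchange path in each subunit, anoctamins (ANO) are channels or lipid scramblases, LRRC8 proteins assemble into the volume-regulated anion channel, and CLIC proteins are soluble proteins that can enter membranes.

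The promoters of CLCN3 and of its closest relatives CLCN4 and CLCN5 are shown because these 3 endosomal exchangers had no peak, and those at the CLIC5 and ANO7 starts because peaks lay beside them. Promoter sequences, from 250 bases before to 50 bases after each start, were taken from RefSeq on GRCh38.p14 and matched 31 of the 36 genes, with 45 starts. CLIC6, ANO8, ANO9, BEST1 and BEST3 are the members with no entry. Capitals mark GCGAGG or CTAATG on either strand, so that GCGAGG on the opposite strand reads CCTCGC. The windows lie at chr4:169620328-169620627 and chr4:169659990-169660289 (CLCN3, + strand), chrX:10156725-10157024 (CLCN4, + strand), chrX:49922346-49922645 (CLCN5, + strand), chr6:46015811-46016110 (CLIC5, - strand) and chr2:241188427-241188726 (ANO7, + strand).
CLCN3 upstream start: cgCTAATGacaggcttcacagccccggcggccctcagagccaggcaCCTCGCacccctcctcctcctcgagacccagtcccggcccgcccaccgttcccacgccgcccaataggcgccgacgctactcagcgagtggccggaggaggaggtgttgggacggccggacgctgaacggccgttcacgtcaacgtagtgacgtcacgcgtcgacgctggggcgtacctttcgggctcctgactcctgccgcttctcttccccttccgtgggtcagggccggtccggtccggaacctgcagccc
CLCN3 downstream start: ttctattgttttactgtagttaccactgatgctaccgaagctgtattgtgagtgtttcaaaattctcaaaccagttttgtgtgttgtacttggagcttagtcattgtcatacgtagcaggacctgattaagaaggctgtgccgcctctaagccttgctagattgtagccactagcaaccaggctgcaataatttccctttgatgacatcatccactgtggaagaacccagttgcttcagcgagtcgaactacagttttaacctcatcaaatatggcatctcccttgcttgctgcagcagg
CLCN4: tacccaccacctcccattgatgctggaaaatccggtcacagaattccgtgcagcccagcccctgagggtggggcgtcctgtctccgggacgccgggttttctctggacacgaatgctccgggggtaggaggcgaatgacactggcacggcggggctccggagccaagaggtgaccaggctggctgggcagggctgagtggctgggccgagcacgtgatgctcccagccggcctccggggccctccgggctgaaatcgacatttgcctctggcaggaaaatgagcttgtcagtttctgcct
CLCN5: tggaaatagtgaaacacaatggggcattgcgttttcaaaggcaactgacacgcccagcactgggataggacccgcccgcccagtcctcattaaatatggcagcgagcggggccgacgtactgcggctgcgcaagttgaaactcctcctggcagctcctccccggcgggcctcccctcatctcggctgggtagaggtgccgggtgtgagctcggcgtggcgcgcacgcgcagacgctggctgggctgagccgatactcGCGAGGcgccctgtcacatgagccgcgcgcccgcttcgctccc
CLIC5 internal start: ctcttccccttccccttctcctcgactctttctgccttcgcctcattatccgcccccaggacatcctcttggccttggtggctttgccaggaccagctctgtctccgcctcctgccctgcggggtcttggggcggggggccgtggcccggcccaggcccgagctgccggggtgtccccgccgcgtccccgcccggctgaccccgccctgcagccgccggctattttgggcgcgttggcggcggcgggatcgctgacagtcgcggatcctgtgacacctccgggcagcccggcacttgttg
ANO7: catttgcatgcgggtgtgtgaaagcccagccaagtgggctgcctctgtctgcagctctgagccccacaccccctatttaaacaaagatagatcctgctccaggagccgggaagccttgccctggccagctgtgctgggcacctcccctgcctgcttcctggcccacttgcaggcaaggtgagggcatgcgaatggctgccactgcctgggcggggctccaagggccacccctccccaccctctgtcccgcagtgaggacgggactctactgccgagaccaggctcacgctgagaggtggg
In the CLCN3 upstream promoter, CTAATG lay from -248 to -243 relative to the start and GCGAGG lay on the opposite strand from -204 to -199. The downstream CLCN3 start held neither. CLCN5, shown at the most upstream of its 3 starts, held GCGAGG from 8 to 13 bases after the start, and no capitals appear in the CLCN4, CLIC5 and ANO7 windows shown. These are matches of letters, which describe the windows and say nothing about binding. The study names GCGAGG and CTAATG as binding motifs from its ChIP-seq data. It places the CLCN3 binding site in a stretch that begins farther upstream than the window shown, where no sequence was searched here.

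The motifs were counted over all starts, since a match in a promoter is read only beside its share elsewhere. GCGAGG, on either strand, was present in 9 of the 31 chloride channel genes with listed starts, against 33.2% of 15843 protein-coding genes, and in 20% of their 45 windows, against 22% of 35116 RefSeq promoters. The 35116 include promoters outside the protein-coding set, which has 22199 windows, so the shares of windows compare unlike sets. The 9 genes were CLCN3, CLCN5, CLCN6, ANO1, ANO2, LRRC8C, LRRC8D, LRRC8E and BEST2, and the share was close to that of other genes. CTAATG was present in 5 genes (CLCN3, ANO2, ANO4, ANO6 and CFTR), against 6.85% of protein-coding genes, and in 11.1% of the windows against 6.49% of all promoters. CLCN3 and ANO2 were the 2 genes with both, and in ANO2 they lay in the promoters of different starts. CCCTCCC, a C-rich element of the kind that HNRNPK binds, was present in 16 genes, against 36.5% of protein-coding genes, and in 40% of the windows against 26.6% of all promoters. CLCN3, CLCN4 and CLCN5 held none of it. Matches of different motifs overlapped in LRRC8D alone, where CCCTCCC from -189 to -183 met GCGAGG on the opposite strand from -184 to -179. The median GC content of the windows was 64.3%, against 62.3% in protein-coding promoters. Of the 45 chloride channel peaks, 0 overlapped any of these windows.

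At least 1 peak was found in the window of 22 of the 36 chloride channel genes (61.1%), against 38.2% of all protein-coding genes. A peak with an FDR under 0.05 was found for 10 of them (27.8%), against 9.05% of all protein-coding genes. There were 8 genes with 1 peak, 8 with 2 peaks, 4 with 3 peaks (CLIC5, ANO1, ANO6 and TTYH3) and 2 with more, ANO7 with 4 and ANO2 with 5. Peaks thus occurred in each of the families and in CFTR. For 19 genes a peak overlapped the span itself, and this held for 29.7% of all protein-coding genes. For CLIC1, BEST2 and BEST4 peaks lay in the flank alone.

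**Figure D1:**
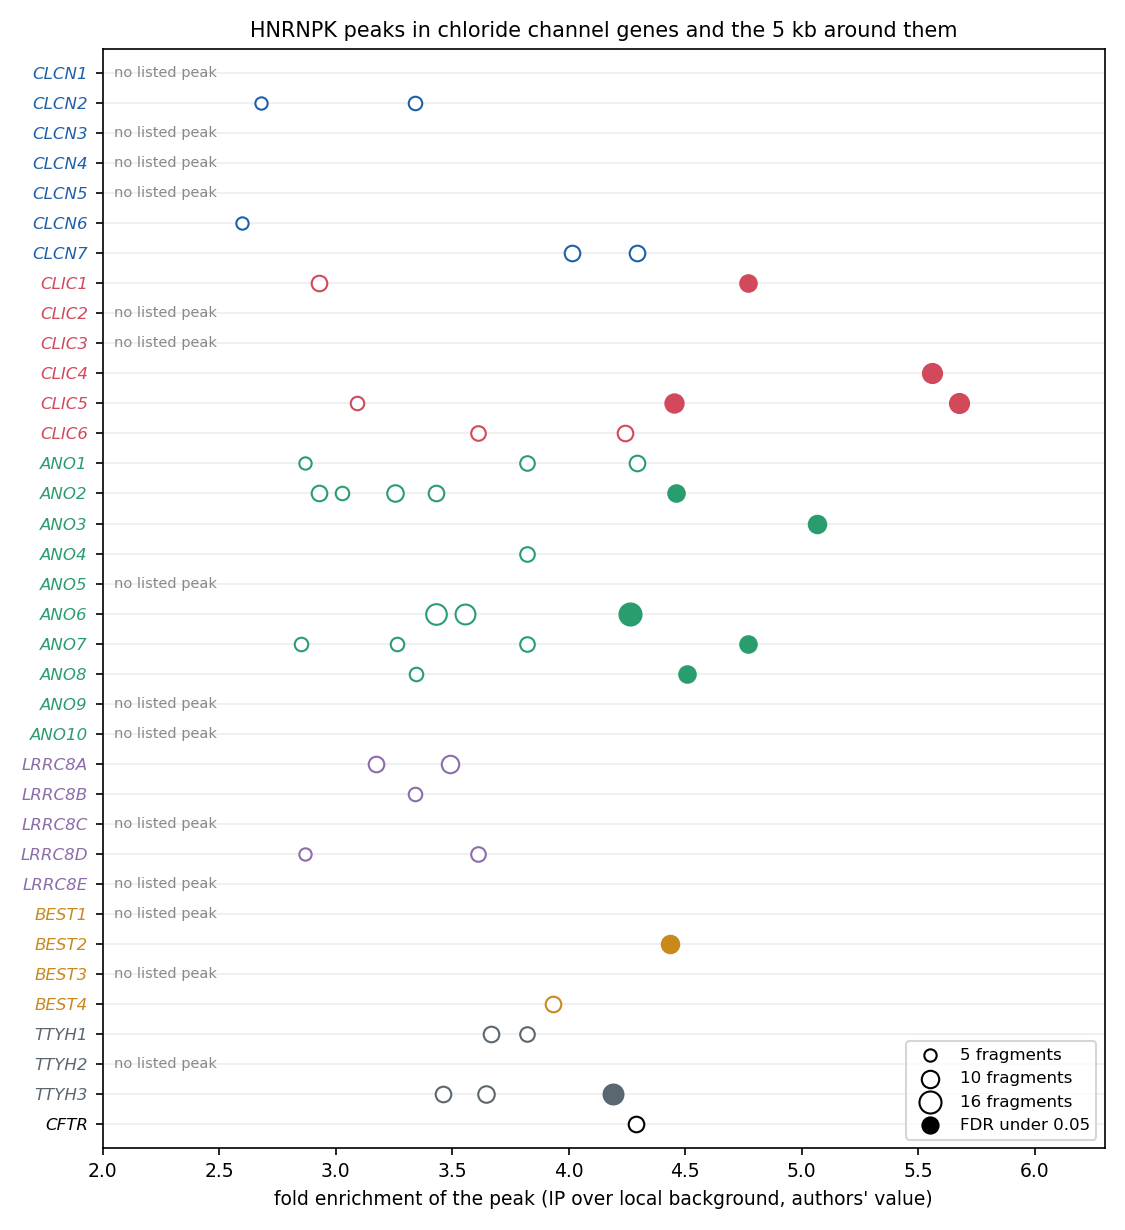
Fold enrichment of each of the 45 listed peaks (x axis, IP over local background, authors' value) in the 36 chloride channel genes (y axis, coloured by family), with circle size giving fragments and filled circles an FDR under 0.05. The values run from 2.60 in CLCN6 to 5.67 in CLIC5, and 14 genes, CLCN3 among them, have no listed peak.

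The genes are longer than most, and a longer window holds more peaks. Their median window was 63.7 kb, against 34.1 kb for all protein-coding genes. When the shares of all protein-coding genes were weighted to the window lengths of the 36 genes, they were 44.8% with a peak and 11.1% with an FDR under 0.05. Weighted to their chromosomes, the same shares were 38.1% and 9.33%. Pooled over the 4247 kb of the windows, the chloride channel genes had 1.06 peaks per 100 kb, against 1.05 for all protein-coding genes, so the density of peaks was near the background. The density of peaks with an FDR under 0.05 was 0.259 per 100 kb, against 0.155. Without chromosome 19, where 55.8% of protein-coding genes had a peak, the pooled densities were 0.963 and 0.932 per 100 kb, and 19 of 32 chloride channel genes had a peak, against 36.8%. Across the 36 genes, Spearman's rho between window length and number of peaks was 0.0905, against 0.238 across all protein-coding genes. Genes are not replicates and these share 1 library pair, so both coefficients are descriptions.

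**Figure D2:**
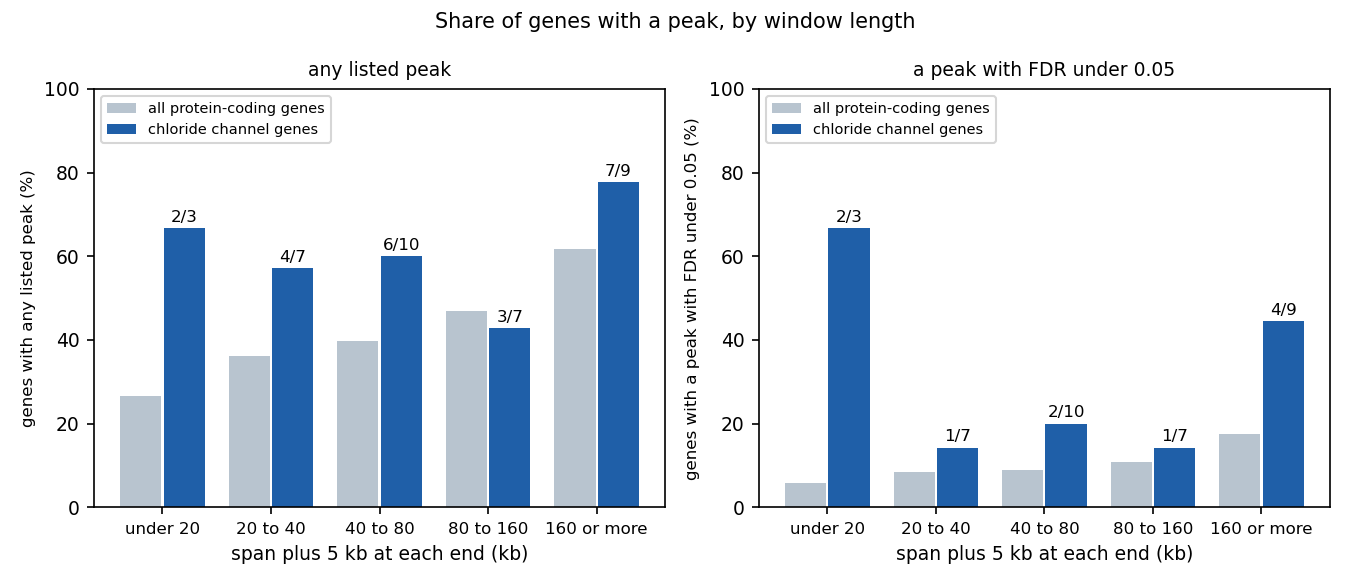
Share of genes (y axis, %) with any listed peak (left) and with a peak of FDR under 0.05 (right) by window length in kb (x axis), for all protein-coding genes (grey) and chloride channel genes (blue, with their counts). In windows of 80 to 160 kb, the class that holds CLCN3, 3 of 7 chloride channel genes and 47.0% of all protein-coding genes had a peak.

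The chloride channel peaks were of ordinary size for the list. Their fold enrichments lay between 2.60 and 5.67 and had a median of 3.65, whereas the whole list had a median of 3.58 and a maximum of 11.4. Their median length was 261 bp against 272 bp, and 15 of them (33.3%) had the lowest length of 233 bp, against 32.0% of all peaks. An FDR under 0.05 was given to 11 of the 45 (24.4%), against 15.5% of all peaks, and an FDR of 1 to 5. The highest coverage, 16 fragments (exact Poisson 95% interval, 9.15 to 26.0), was that of a peak in ANO6, and the lowest was 5 (1.62 to 11.7). The intervals are wide at this depth. They cover counting error only and take each fragment as an independent molecule, which reads copied by PCR would not be.

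Of the 45 peaks, 36 overlapped a span and 9 lay in a flank. The positions within the spans were then examined, a comparison chosen after the values were seen. For the 17 genes with a listed start and a peak midpoint in the span, 23 of 33 midpoints (69.7%) lay beyond the middle of the span as seen from its 5' end, against 52.5% of 9270 for all protein-coding genes with listed starts. The median position was 69.1% of the way along the span, against 52.8%. Genes of the same kind with windows of 160 kb or more had 52.9% of midpoints beyond the middle. Counted by gene, the median midpoint lay beyond the middle in 11 of the 17 (64.7%), against 51.9% of 4637 protein-coding genes. In ANO1 and in ANO6 all 3 peaks lay there, whereas every span peak of CLCN2, ANO4, TTYH3 and CFTR lay before the middle. Whether a peak lay in an exon or an intron was not analysed here.

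**Figure D3:**
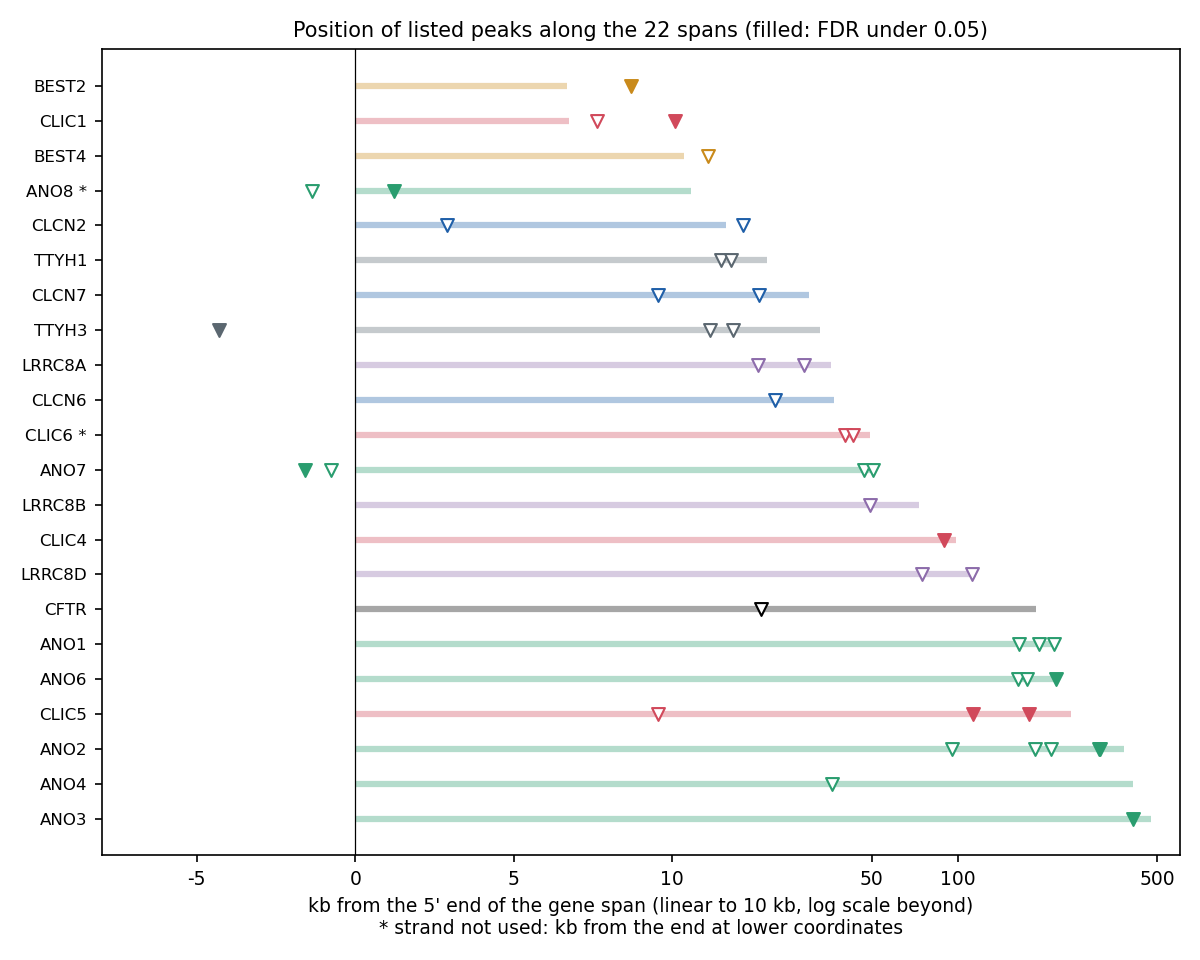
Midpoint of each peak (triangles, filled for an FDR under 0.05) in kb from the 5' end of the gene span (x axis, linear to 10 kb and logarithmic beyond) for the 22 chloride channel genes with a peak (y axis), with bars showing the spans. The x axis reading does not hold for CLIC6 and ANO8. They have no listed start and their strand was not used, so their peaks have no distance from a 5' end. In ANO3, the widest span at 474 kb, the peak lies 412 kb from the 5' end.

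A peak within 5 kb of a start was found for 5 of the 36 genes (13.9%), against 18.6% of all protein-coding genes. These were CLCN2, CLIC5, ANO7, ANO8 and TTYH3, with either end of the span used for ANO8. Among peaks with an FDR under 0.05 the order turned, with 4 of the 36 genes (11.1%) against 3.68% of all protein-coding genes, and these were CLIC5, ANO7, ANO8 and TTYH3. Of the 41 peaks in genes with listed starts, 36 (87.8%) were more than 5 kb from every start of their gene. Over all protein-coding genes with listed starts, 72.7% of 12352 pairs of a gene and a peak in its window were.

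In the CLC family, 3 of 7 genes had a peak and 0 had a peak with an FDR under 0.05. CLCN3, CLCN4 and CLCN5 encode exchangers of chloride for protons in endosomes, and none of these 3 had a peak in a combined window length of 390 kb. CLCN1, the channel that stabilises the resting voltage of skeletal muscle, had none either. CLCN2, a widely expressed plasma membrane channel, had a peak at chr3:184358586-184358845 with a fold enrichment of 3.34, 6 fragments (2.20 to 13.1) and an FDR of 0.64, which began 2760 bp downstream of its start. Its other peak, past the 3' end and over FAM131A, had a fold enrichment of 2.68 and an FDR of 1. CLCN6, of late endosomes, had a peak of 2.60 with an FDR of 1. CLCN7, the lysosomal exchanger needed by osteoclasts, had the strongest peaks of the family, with fold enrichments of 4.30 and 4.02 and FDRs of 0.101 and 0.14. CLCN7 was the CLC gene here with 2 peaks inside its span.

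CLCN3 spans chr4:169620578-169723673 on the + strand, and its window of 113 kb held 0 peaks. The nearest peak lay 95.2 kb beyond the span at higher coordinates, with a fold enrichment of 3.16, 6 fragments and an FDR of 0.64. The nearest peak with an FDR under 0.05, at chr4:172912842-172913136, was 3189 kb distant, with a fold enrichment of 5.25, 10 fragments and an FDR of 0.00457. Of the 35 relatives, 6 lay farther from a peak than CLCN3, namely ANO5 (1604 kb), CLCN5 (863 kb), CLCN4 (747 kb), ANO10 (264 kb), BEST3 (261 kb) and CLIC2 (191 kb). Of all protein-coding genes, 23% were at least as far from a peak as CLCN3, so its distance to any listed peak was within the ordinary range. Among peaks with an FDR under 0.05, ANO5 (3996 kb) was the only relative farther away than CLCN3. That distance was not set against all protein-coding genes. On chromosome 4, 179 of 770 protein-coding genes (23.2%) had a peak in the same window, and among those with windows of 80 to 160 kb 41 of 155 did. CLCN4, CLCN5 and CLIC2 lie on the X chromosome, where 13.2% of protein-coding genes had a peak. No listed peak had fewer than 5 fragments, even where the background was lowest. Weaker IP coverage at CLCN3 would leave no entry, so the count of 0 is also a limit of the list.

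**Figure D4:**
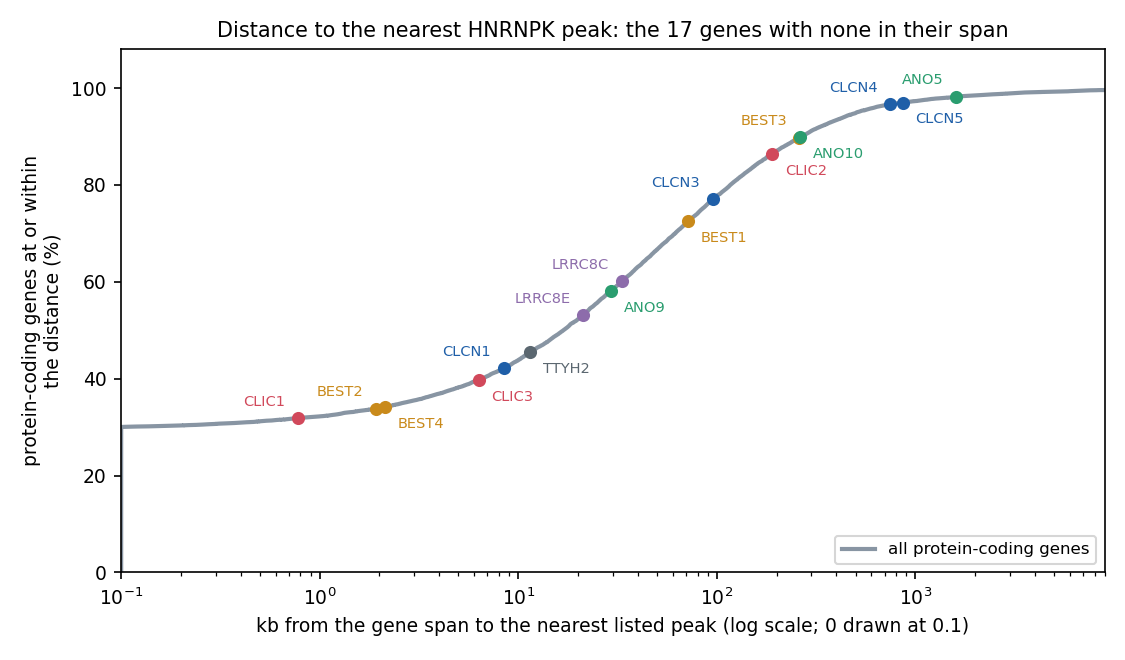
Distance in kb from the gene span to the nearest listed peak (x axis, log scale) against the share of protein-coding genes at or within that distance (y axis, %), with a line for all protein-coding genes and points for the 17 chloride channel genes that have no peak in their span. CLCN3 lies at 95.2 kb, between BEST1 at 71.7 kb and CLIC2 at 191 kb.

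In the CLIC family, 4 of 6 genes had a peak, 3 of them with an FDR under 0.05, and the 2 highest fold enrichments of all chloride channel peaks were here. CLIC5, which anchors the membrane of hair cell stereocilia to actin, had a peak at chr6:45951421-45951776 with a fold enrichment of 5.67, 12 fragments (6.20 to 21.0) and an FDR of 0.000383. Another CLIC5 peak, at chr6:46016215-46016501, had a fold enrichment of 4.45 and an FDR of 0.0203 and lay 355 to 641 bp upstream of the internal start whose promoter is shown above. Among the peaks with an FDR under 0.05 in genes with listed starts, it was the nearest to a start. The remaining CLIC5 peak had a fold enrichment of 3.09 and an FDR of 0.64. CLIC4, found in the cytosol, nucleus and organelles, had a peak at chr1:24834618-24834874 with a fold enrichment of 5.56, 12 fragments and an FDR of 0.000548, 89.3 kb from the 5' end of a span of 98.9 kb. CLIC1, whose soluble form has a glutathione transferase fold, had a peak of 4.77 with 9 fragments (4.12 to 17.1) and an FDR of 0.0243, at chr6:31726981-31727277. It lay 3.30 kb past the 3' end of CLIC1. A weaker peak of 2.93, with an FDR of 0.64, lay 0.774 kb past that end, and both overlapped another gene, DDAH2. CLIC6 had peaks of 3.61 and 4.24 with FDRs of 0.331 and 0.101. CLIC2 and CLIC3 had no peak.

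In the anoctamin family, 7 of 10 genes had a peak, and 5 of them had an FDR under 0.05. With 19 peaks it held more than any other family, yet in the longest windows, so that its density of 0.819 peaks per 100 kb was lower than that of the CLC family, 0.911. ANO1, the calcium-activated chloride channel of secretory epithelia, had 3 peaks with fold enrichments from 2.87 to 4.30 and FDRs from 0.101 to 1. ANO2, the calcium-activated channel of olfactory neurons, had 5 peaks from 2.93 to 4.46, of which the highest, at chr12:5631782-5632073, had 9 fragments and an FDR of 0.0442. Per length of window both channels were alike, with 1.28 peaks per 100 kb for ANO1 and 1.27 for ANO2.

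ANO6, a calcium-activated scramblase that exposes phosphatidylserine on platelets, had 3 peaks with 13, 14 and 16 fragments. The last of these, at chr12:45436645-45437023, had a fold enrichment of 4.26 and an FDR of 0.00235. The local backgrounds of the 3 peaks were 2.84 to 3.26 where the whole list had a median of 1.28, so their high fragment numbers came with a high background, whose part in them was not tested. ANO3, mutated in a form of dystonia, had 1 peak in the longest span of all, at chr11:26600259-26600547, with a fold enrichment of 5.07, 10 fragments (4.80 to 18.4) and an FDR of 0.00675. ANO4 had 1 peak, of 3.82 with an FDR of 0.29.

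ANO7, a prostate-enriched anoctamin, was the gene with the most peaks upstream of its start. The peak at chr2:241186918-241187239 had a fold enrichment of 4.77, 9 fragments and an FDR of 0.0243 and lay 1438 to 1759 bp upstream. The peak at chr2:241187543-241188302 lay 375 to 1134 bp upstream, had a fold enrichment of 3.82 and an FDR of 0.29, and at 760 bp was the longest of the chloride channel peaks. Both lay over a noncoding gene, LOC105373971, and neither reached the promoter window shown above. The other ANO7 peaks, of 2.85 and 3.27, lay near its 3' end over HDLBP, and they were the 2 span peaks of the chloride channel genes that overlapped another protein-coding gene. ANO8 had a peak at chr19:17324292-17324618 with a fold enrichment of 4.51, 9 fragments and an FDR of 0.0409, and a weaker one of 3.34 in the flank over DDA1. ANO5, in which mutations cause a muscular dystrophy, ANO9 and ANO10, in which mutations cause an ataxia, had no peak.

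In the LRRC8 family, 3 of 5 genes had a peak and 0 had one with an FDR under 0.05. LRRC8A, the subunit that every volume-regulated anion channel needs, had peaks of 3.49 and 3.17 with FDRs of 0.201 and 0.522. LRRC8B had a peak of 3.34, and LRRC8D, a subunit that lets the channel pass larger organic solutes, had peaks of 3.61 and 2.87. LRRC8C and LRRC8E had none. LRRC8B, LRRC8C and LRRC8D are neighbours on chromosome 1, and the peak nearest to LRRC8C lay 33.2 kb from it, between LRRC8C and LRRC8D, with a fold enrichment of 4.30 and an FDR of 0.101.

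In the bestrophin family, 2 of 4 genes had a peak, and both peaks lay past the 3' end. The BEST2 peak, at chr19:12760384-12760616, had a fold enrichment of 4.43, 10 fragments and an FDR of 0.0302 and lay 1.93 kb past the span. The BEST4 peak had a fold enrichment of 3.93 and an FDR of 0.17. BEST1, the channel of the retinal pigment epithelium that is mutated in Best disease, and BEST3 had no peak.

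The tweety family had the highest pooled density, 3.77 peaks per 100 kb, with 5 peaks in a combined window length of 133 kb. TTYH3 had a peak at chr7:2627520-2627837 with a fold enrichment of 4.19, 13 fragments (6.92 to 22.2) and an FDR of 0.0143, which lay 4149 to 4466 bp upstream of its start, and 2 in its span of 3.65 and 3.46. TTYH1, on chromosome 19, had peaks of 3.66 and 3.82 with an FDR of 0.29 for each, and TTYH2 had none. CFTR, the epithelial channel mutated in cystic fibrosis, had 1 peak in its span of 189 kb, with a fold enrichment of 4.29, 8 fragments (3.45 to 15.8) and an FDR of 0.101. It lay 20.4 kb from the start, and the pooled density of 0.503 peaks per 100 kb was lower than that of every family.

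Other genes of chloride transport were counted in the same way from a list of 60. A peak was found for 22 of the 60 (36.7%) and a peak with an FDR under 0.05 for 4 (6.67%), against the 38.2% and 9.05% of all protein-coding genes. These genes too have long windows, with a median of 63.3 kb, and pooled over them there were 0.652 peaks per 100 kb, against 1.05 for all protein-coding genes, and 0.0636 peaks with an FDR under 0.05, against 0.155. Of the cation-chloride cotransporters, which set the chloride gradient that channels use, 5 of 9 had a peak and 0 had an FDR under 0.05. Of the anion exchangers, 5 of 13 had a peak, and the bicarbonate exchangers SLC4A3 (4.77) and SLC4A2 (4.61, at its 3' end and over FASTK) had fold enrichments with FDRs of 0.0243 and 0.0323. Of the GABA-A and glycine receptor subunits, the chloride channels of inhibitory synapses, 7 of 23 had a peak and 0 had an FDR under 0.05. WNK2, a kinase of the family that regulates the cotransporters, had a peak of 5.72 with an FDR of 0.000671.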

How the data were processed

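HNRNPK binding was read from 1 peak list of 1 IP and 1 input library of H1299 cells, mapped to their groups by the antibody label. The fold enrichment deposited for each peak is the ratio of its IP coverage to the local background, and the deposited FDR is a q-value on a linear scale. The deposited pileup is a signal, the IP coverage in scaled fragments. The submitters' processing notes name Trimmomatic 0.36, STAR 2.5.3a, MACS2, bedtools, HOMER and GRCh38, and the settings of the peak caller were not given in the sources used here. The lowest fold enrichment in the list was 2.00, and weaker IP coverage is therefore not seen.

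Peaks were placed on RefSeq gene spans of GRCh38 by 1 bp of overlap with the span or the 5 kb around it. Fragments are the pileup divided by its step, with a deviation of at most 0.0052 steps among the chloride channel peaks, and carry exact Poisson 95% intervals. The local background was recovered from the fold enrichment, taken as the ratio of pileup to background with 1 added to each. Distances to a start use RefSeq starts with strand, or either end of the span where no start is listed. Counts were set beside the same counts over all protein-coding genes, with no test, because there is 1 library of each kind. The placement was tested on simulated data. Members and lists were chosen with earlier results of these data known.

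The named genes were the CLC genes, every member with a peak of FDR under 0.05, the 5 members with most peaks (and those tied with them) and the 5 with the highest fold enrichment, members with no peak by family, and at most 10 genes of the wider list by fold enrichment at an FDR under 0.05. The other members with a peak were named so that each is accounted for, after their values were seen. A result of the wider list is not reported here. The software was Python 3.11.15, pandas 2.3.3, numpy 2.4.6, scipy 1.17.1 and, for figures, matplotlib 3.10.9.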

Additional observations from a re-analysis of the deposited data

How the results depend on the processing

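The number of chloride channel genes with a peak, 22, was 10 at an FDR under 0.05 and 3 from a fold enrichment of 5 upward (CLIC4, CLIC5 and ANO3), against 9.05% and 2.20% of protein-coding genes, and their peaks, 45, numbered 11 and 3. These fall by construction, as fewer peaks are counted. Flanks from 0 to 50 kb gave 19 to 28 genes, against 29.7% and 66.6% of protein-coding genes at these 0 and 50 kb ends. The flank of 50 kb raised the peaks to 88. At CLCN3 the count was 0 in all settings run except a flank of 100 kb, which held 1 peak. The distance from CLCN3 to the nearest peak, 95.2 kb, was the same among peaks of fold enrichment 3 or more and was 3189 kb among those of FDR under 0.05 and those of fold enrichment 5 or more. Genes with a peak near a start, 5 at 5 kb, numbered 2 at 1 kb and 11 at 10 kb, against 7.55% and 27.6% of protein-coding genes, since the distance sets what is counted. At an FDR under 0.05 they numbered 4, against 3.68% of protein-coding genes, so the share was then above that of other genes and not below it, and the cause was not tested. The motif count, 9 genes for GCGAGG, was 5 for CTAATG and 16 for CCCTCCC, which are other letters. The flank of 100 kb and leaving out flank peaks over another protein-coding gene (21 genes) were chosen after seeing the data. So was using genes with listed starts alone, which gave 4 near a start, against 16.5% for protein-coding genes. No paired analysis was possible because the study has 1 library of each kind. The depth limits single peaks, since the median chloride channel peak has a coverage of 8 fragments. Peaks of FDR 0.05 or more make up most of the counts.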
